A study of Schizosaccharomyces pombe
Saccharomyces cerevisiae with 8 samples.

Results

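Steady-state RNA was compared between budding yeast cells treated with auxin, which targets the tagged general transcription factor Sua7 for degradation, and cells given only the carrier. The comparison takes in the 4 total RNA libraries of the 8 in the series, chosen by their labels, and all 6605 genes listed for them, of which 5479 had enough counts to be tested. Every library came from the MATalpha strain GZY364, with ade2Δ::hisG, his3Δ200, leu2Δ0, lys2Δ0, met15Δ0, trp1Δ63 and ura3Δ0, OsTIR1 under the GPD1 promoter at his3 (his3::pGPD1-OsTIR1-HIS3) and Sua7 tagged at its own locus (SUA7-3V5-IAA7-kanMX6). Cells received 500 µM auxin or DMSO for 30 min and then 4-thiouracil, a base analog that marks RNA as it is made, at 5 mM for 6 min. They were mixed with cells of Schizosaccharomyces pombe, and each library took 800 ng of total RNA after removal of ribosomal RNA. Each group had 2 libraries. The degron and OsTIR1 are shared by both groups, and no strain without the degron was given auxin, so effects of auxin itself and of Sua7 loss cannot be told apart. The labels do not say that replicates were separate cultures, so the p-values measure the spread between these libraries, which may be technical.

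Sua7 is the yeast form of TFIIB, which bridges the TATA-binding protein and RNA polymerase II at the promoter and is needed to start transcription of nearly all messenger RNAs. When new transcription stops, the amount of a messenger RNA that remains after some time depends on how fast it decays and on any transcription that goes on. In yeast, messenger RNAs for ribosomal proteins and glycolytic enzymes are known as long-lived, and those for transcription factors, cell cycle regulators and stress proteins as short-lived. Transcripts of RNA polymerase I and III and of the mitochondrial RNA polymerase do not use Sua7.

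Total counts were 8275038 and 10543351 for the DMSO libraries and 7010247 and 7181104 for the auxin libraries. Values below are scaled counts, the raw counts divided by the factor that the authors deposited for each library, and the sources used here do not say what the factors measure. In these bulk samples fewer cells and less RNA per cell cannot be told apart. SUA7 RNA had 1215 and 1539 scaled counts in the DMSO libraries and 195 and 236 in the auxin libraries, a log2 change of -2.68. The tag acts on the protein, so this fall does not check the labels. Of 4 alpha-cell genes, 3 were matched by name and were present, STE3 with 2337 and 2869 raw counts in DMSO, while BAR1, the only a-cell gene of 7 matched by name, had 8 and 11.

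RNA was lower at most genes and the loss was uneven. By edgeR's quasi-likelihood test with Benjamini-Hochberg adjusted p under 0.05, 4946 of 5479 genes were lower, 90.3% of those tested, and 79 were higher, 1.44%, so that 91.7% were called in either direction. Of the higher genes 47 were tRNA genes, out of 265 nuclear and mitochondrial tRNA genes listed, tested or not. A further 29 were protein-coding genes of the nucleus. With a minimum mean count of 50, only 20 genes of any kind were higher. Only 2 of these 29 had a mean scaled count of at least 100 in DMSO, YGL009C and YNL008C, and both calls were lost when DMSO replicate 1, DMSO replicate 2 or auxin replicate 2 was left out. In each such fit 1 group has a single library and the spread comes from the other group alone, so the lone library is assumed to vary like that group and power is lower. A call lost in this way, here and below, does not show a smaller change. The share of the DMSO level that remained had a lower quartile of 12.7% and an upper quartile of 36.0% over genes. It was over 50% at 897 genes (16.4%) and under 10% at 744 (13.6%). The summed scaled count of nuclear protein-coding genes kept 57.6%, against 19.8% for the median gene, and the most abundant RNAs were the best kept.

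These directions rest on the deposited factors. TMM factors computed from the listed S. cerevisiae genes moved the median of tested genes up by 2.22 on the log2 scale, and with them the median log2 change of 17 of the 36 functions examined and the change of 30 of 84 named genes turned from negative to positive. Lower and higher below are relative to the deposited factors throughout. Kept, lost and fell are relative to the DMSO libraries, since the series has no library from before treatment. For any gene, a loss of RNA under auxin and a rise under DMSO alone cannot be told apart. A factor that moves all genes alike cancels from differences between functions.

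The log2 change differed with the level in control cells. Tested genes were divided into 20 groups of equal size by their mean DMSO level per kb of the deposited length, which for coding genes is the coding length. The first group, with the lowest levels, had a median log2 change of -1.92, and 71.9% of its genes were lower. It held 39 of the 79 higher calls. From the second to the fourteenth group the median log2 change lay between -2.41 and -2.72. It then moved towards 0, to -1.95 in the seventeenth, -1.14 in the nineteenth and -0.32 in the top group, above 5534 scaled counts per kb. In that top group 39.2% of genes were called lower and the median gene kept 79.99%. Functions are therefore given below by their log2 change and also by a level-adjusted change, the log2 change of a gene minus the median of its own level group. It is a description on the log2 scale, with no test, and a positive value means that a gene kept more RNA than genes of like level. Levels and changes share the DMSO libraries. When the level came from DMSO replicate 1 and the change from replicate 2, 6 of 36 level-adjusted medians moved by more than their SD over the library pairs. In the reverse case 5 did. No median that lay further than this SD from 0 changed its sign.

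**Figure D1:**
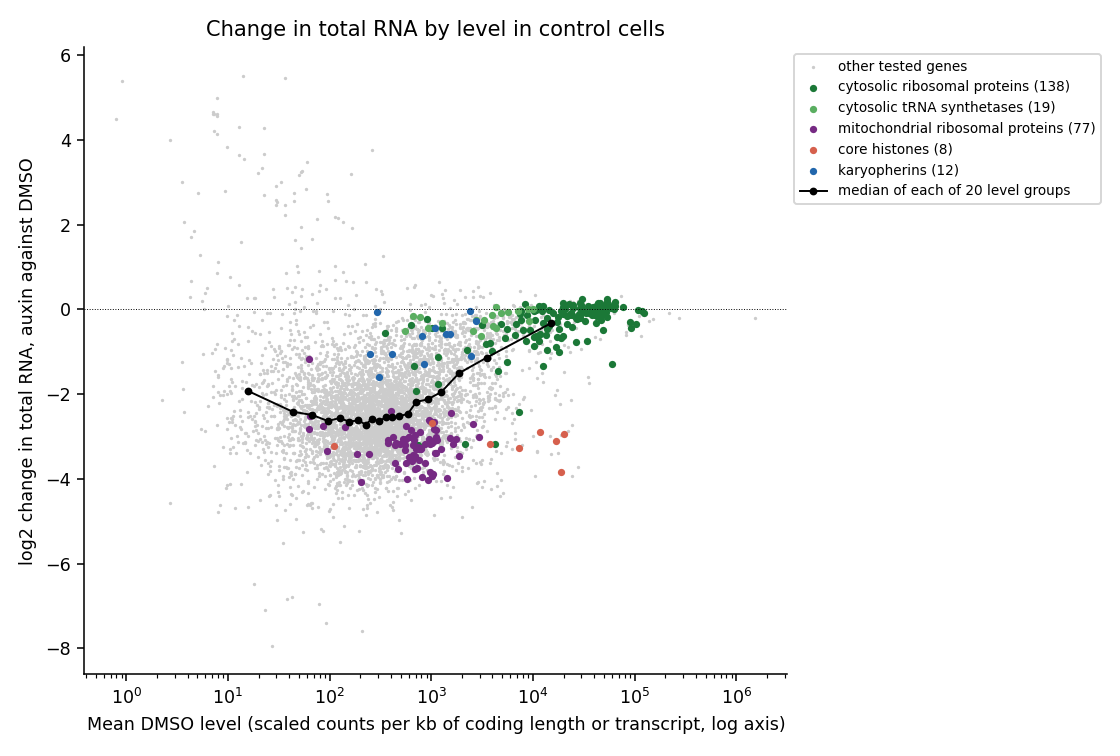
Each point is a tested gene, on the deposited scaling, by its mean DMSO level (scaled counts per kb, log axis) and its log2 change in total RNA, and the black line joins the medians of the 20 level groups. The medians start at -1.92 in the lowest group, lie between -2.41 and -2.72 over most of the range and rise to -0.32. The 138 cytosolic ribosomal protein genes lie near the right end. The 77 mitochondrial ribosomal protein genes lie mostly below the line and the 8 core histone genes far below it.

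Genes for the cytosolic translation machinery kept most of their RNA. Of 138 genes for cytosolic ribosomal proteins, 37 were lower. Their median log2 change was -0.15 (90.04% kept). The level-adjusted median was 0.24, but 0.53 with 10 level groups, 0.51 when length was matched too and 0.11 with 40 level groups. The median member lay in the top level group, which has 273 genes. These genes are thus part of the median they are set against, which pulls their level-adjusted value towards 0. DESeq2 called 50 lower. The highest member, RPL21B, a protein of the large subunit, had 13156 and 16323 scaled counts under DMSO and 15299 and 19684 under auxin, and the groups overlap, although within each replicate number the auxin library was the higher. The lowest, RPL15B, had 405 and 515 under DMSO and 40.8 and 59.4 under auxin, for a log2 change of -3.20 (SE of 0.28, edgeR adjusted p = 3.74e-29). Only 4 of the 138 genes kept under 20%. The count of lower genes fell to 17 without DMSO replicate 2, 21 without auxin replicate 1 and 19 without auxin replicate 2.

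The factors that carry out elongation and termination were also well kept, with 4 of 13 lower and a median of -0.21 (86.6% kept), which ranged from -0.37 to -0.06 when single libraries were left out. EFT2, which encodes the elongation factor that moves the ribosome along the message, had 21945 and 26174 scaled counts under DMSO and 22910 and 29287 under auxin. SUP45, the release factor that ends translation, fell to 40.9% (log2 change -1.29, SE 0.25, edgeR adjusted p = 4.85e-07). Initiation factors kept less. Of 16 such genes 10 were lower, 6 without DMSO replicate 2 or without auxin replicate 1, and the median was -0.73 (60.1% kept). Within them GCN3, a regulatory subunit of the exchange factor eIF2B, fell by 2.48 on the log2 scale, while TIF1, which encodes the RNA helicase eIF4A, had 5554 and 6718 scaled counts under DMSO and 5319 and 7083 under auxin.

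The enzymes that charge tRNAs with amino acids separated by compartment. Of 19 genes for cytosolic tRNA synthetases, 3 were lower, 6 with DESeq2, with log2 changes from -0.62 to 0.06 and a median of -0.24. All 19 kept more than their level group, with a level-adjusted median of 0.89, or 0.58 with 10 level groups, 0.51 when coding length was matched too and 0.30 when level was not divided by length. CDC60, the leucyl enzyme, had 12885 and 15272 scaled counts under DMSO and 13112 and 16278 under auxin. WRS1, the tryptophanyl enzyme, was at the other end with 3659 and 4379 under DMSO and 2285 and 2947 under auxin, a change of -0.62 (SE 0.25, edgeR adjusted p = 0.0146). Its groups do not overlap, but its call was lost in each of the 4 fits that left out a library (log2 change from -0.81 to -0.45, adjusted p between 0.0612 and 0.307), and in each the count of lower genes was 0, at an unadjusted p under 0.05 as well.

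The 13 genes whose deposited description names a mitochondrial tRNA synthetase were all lower, against 90.3% of all tested genes. Their log2 changes lay between -3.86 and -2.09, with a median of -3.42 (9.35% kept) and a level-adjusted median of -0.70. These genes were collected after the values had been seen. MSM1, the mitochondrial methionyl enzyme, went from 196 and 209 scaled counts to 10.4 and 18.2, and ISM1, the isoleucyl enzyme, from 201 and 228 to 43.4 and 57.5. The ranges of the log2 changes of the cytosolic and mitochondrial enzymes did not overlap. Their DMSO levels were also apart, at 547 to 10109 scaled counts per kb for the cytosolic genes and 41.1 to 482 for the mitochondrial ones, and the part of level in the contrast is covered only by the adjustment.

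**Figure D2:**
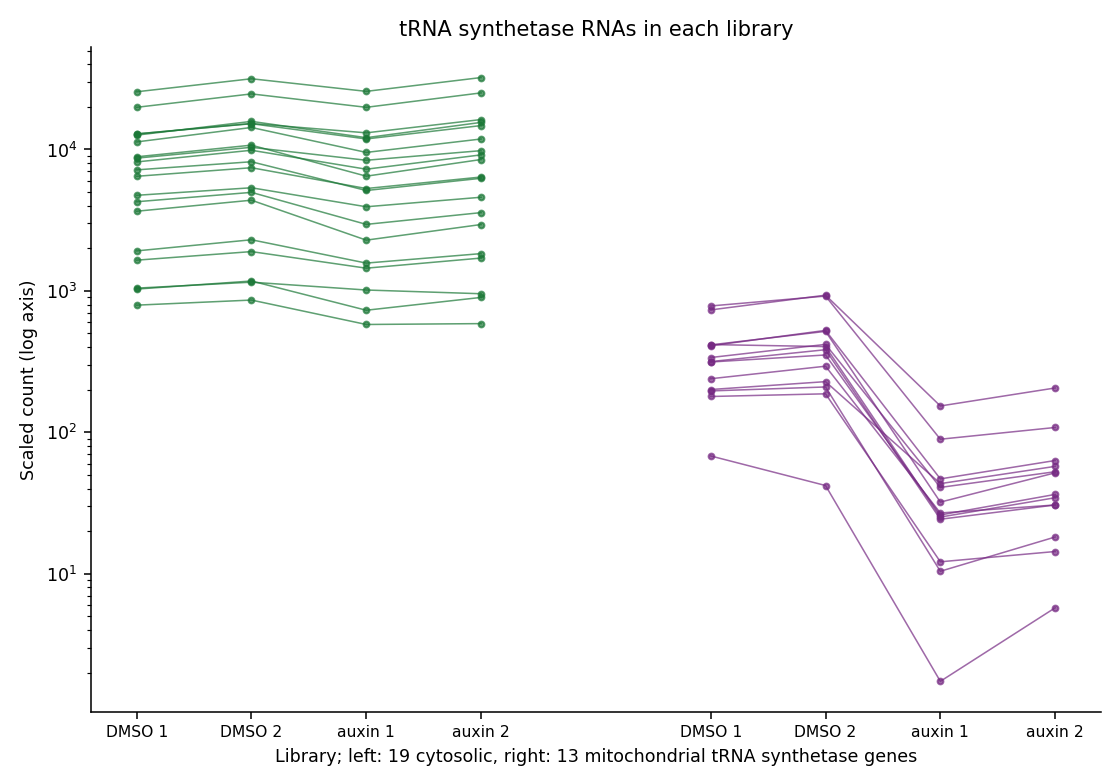
Lines join the scaled counts (log axis) of each tRNA synthetase gene in the 4 libraries on the deposited scaling, cytosolic on the left and mitochondrial on the right. The 19 cytosolic genes run nearly flat, between 65.1 and 104% of their DMSO level, and all 13 mitochondrial genes drop, to between 6.87 and 23.5%.

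RNAs for the mitochondrial ribosome, which translates the few proteins encoded by mitochondrial DNA, were among the most depleted of the functions examined. All 77 tested genes annotated to its subunits were lower, against 90.3% of all tested genes, with a median of -3.19 (10.98% kept). The level-adjusted median was -1.04, and 75 of the 77 lay below their level group. MRPL35, a protein of its large subunit, had 168 and 284 scaled counts under DMSO and 6.08 and 21.1 under auxin (log2 change -4.08, SE 0.32, edgeR adjusted p = 3.18e-35). Its auxin values rest on 7 and 22 raw counts, and the DESeq2 adjusted p was 2.42e-06. With single libraries left out its log2 change ranged from -5.19 to -3.42. The least changed member with a mean DMSO count of at least 100, YGR084C of the small subunit, still went from 355 and 455 to 78.1 and 74.7. Matching coding length as well as level left the median at -0.74.

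Other mitochondrial functions fell in the same direction. Their counts stand beside 90.3% lower over all tested genes. All 20 genes annotated to assembly of respiratory complex IV were lower, with a median of -3.33 (9.91% kept) and a level-adjusted median of -1.03, or -0.61 when level was not divided by length. YGR112W, an inner membrane protein needed for that assembly, fell to 5.35%, from 285 and 365 scaled counts to 19.96 and 14.4, and YLR038C, a small subunit of the complex itself, to 34.4%. Iron-sulfur cluster assembly had 21 of 22 lower (median -2.87, level-adjusted -0.53) and mitochondrial protein import 23 of 23 (median -2.33, level-adjusted -0.51). In the import list ZIM17, a co-chaperone of the import motor, kept 8.31%, and SSC1, the Hsp70 that drives the motor, kept 38.1%. Genes annotated to the respiratory chain and to proton-transporting ATPases, which include subunits of the vacuolar enzyme, were lower at 35 of 36. Their median of -2.01 was 0.40 below the level groups, and the sign turned to 0.27 above when level was not divided by length. CYC1, the main cytochrome c, fell from 926 and 1046 scaled counts to 67.7 and 94.8.

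The genes encoded by mitochondrial DNA itself stood apart from the nuclear genes for mitochondria. Of 24 tested, edgeR called 0 lower and 2 higher, with the same counts at an unadjusted p under 0.05, and DESeq2 called 0 lower and 4 higher, with 1 lower at an unadjusted p. Without DMSO replicate 1 edgeR called 0 lower and 0 higher, without DMSO replicate 2 it called 0 and 1, and without auxin replicate 2 it called 1 and 0, with the same counts at an unadjusted p. The list had a median of 0.26, which ranged from 0.07 to 0.47 when single libraries were left out. Q0255, a maturase-like reading frame, had 830 and 1070 scaled counts under DMSO and 1181 and 1563 under auxin, a change of 0.53 (SE 0.26, edgeR adjusted p = 0.0418), and its call was lost in each fit that left out a library (log2 change from 0.31 to 0.72, adjusted p between 0.0682 and 0.428). These genes took 1.83 and 2.01% of counts in DMSO and 3.31 and 3.73% in auxin.

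Genes that build the ribosome fell less than the typical gene but more than the ribosome's own proteins. The list used shares some genes with the cytosolic ribosomal proteins, RPS9A among them, and these were not removed. Of 189 genes annotated to rRNA processing, 160 were lower, with a median of -1.77 (29.3% kept), and 136 of 189 lay above their level group (median 0.35). Their upper end was led by YMR229C, an RNA-binding protein of the early processing complex for the small subunit, with 11985 and 14836 scaled counts under DMSO and 15648 and 20397 under auxin. Its groups do not overlap. That gene did not pass edgeR's test, and DESeq2 called it higher (log2 change 0.43, adjusted p = 0.0221). URB1, a nucleolar protein needed for the large subunit rRNAs, had 2939 and 3667 under DMSO and 2838 and 3691 under auxin. At the lower end of members with a mean DMSO count of at least 100, CBT1, annotated to rRNA but known for processing of mitochondrial transcripts, fell to 7.66%.

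Subunits of RNA polymerase I and III, which make rRNA and tRNA, had 16 of 19 genes lower and a median of -2.11. The list was wide. Among members with a mean DMSO count of at least 100 it ran from RPC17, a small subunit of polymerase III, at -3.50 (SE 0.30, edgeR adjusted p = 1.10e-30) to RPA190, the largest subunit of polymerase I, at 0.29, and the lowest of all 19 genes was at -4.73. RPA190 had 11502 and 13914 scaled counts under DMSO and 13879 and 17186 under auxin. The small nucleolar RNAs made by polymerase II, which guide the modification of rRNA, fell at 50 of 62, with a median of -0.92 (53.0% kept). The count was 26 without DMSO replicate 2. SnR30, needed for cleavage of the rRNA precursor, kept 93.7%, and snR68, a methylation guide, kept 7.61%, with 10.4 and 6.70 scaled counts left in auxin.

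The core histones were the furthest below their level group of the 36 functions examined. The 8 genes with a description as a core histone were all lower, against 90.3% of all tested genes. They had a median of -3.14 (11.4% kept) and a level-adjusted median of -2.60. They were collected from descriptions after values had been seen. At 110 to 20380 scaled counts per kb in DMSO they included some of the most abundant messages, and none kept over 15.6%. YNL030W, which encodes histone H4, had 5338 and 6566 scaled counts under DMSO and 349 and 484 under auxin, a change of -3.84 (SE 0.28, edgeR adjusted p = 8.43e-40). HTA1, which encodes histone H2A, went from 2677 and 3182 to 273 and 337. By level per kb, YNL030W (312 bases) and HTA1 (399 bases) were in the top level group. That group also holds many cytosolic ribosomal protein genes. Near-identical histone gene copies can share reads, so the split between copies is uncertain.

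Gene regulators were lower at nearly every gene, which is close to the share for all genes of the same level (between 96.7 and 98.5% lower in the fourth to the fourteenth level group). Of 141 genes annotated as transcription factors that bind DNA, 139 were lower, with a median of -2.76 (14.8% kept), and 96 lay below their level group (median -0.24). CAT8, an activator of genes for growth without glucose, fell from 101 and 116 scaled counts to 4.34 and 5.75 (4.73% kept). Its upper end was CAM1 (81.4% kept), which carries the annotation but is better known as a subunit of translation elongation factor 1B. General transcription factors and TBP-associated factors fell at 22 of 22 (median -2.48, level-adjusted -0.04), from NCB2, a subunit of a regulator that binds the TATA-binding protein, at 7.69% to TAF2, a subunit of TFIID, at 54.2%. The call of TAF2 was lost without DMSO replicate 2 (adjusted p = 0.0661) and without auxin replicate 1 (0.0648). Mediator, the coactivator complex between activators and polymerase, fell at 29 of 29 (median -2.73, level-adjusted -0.17), with YHR058C at 4.76% and SRB2 at 38.9%. Splicing genes were lower at 80 of 84 with a median of -2.67 and a level-adjusted median of -0.34, or -0.20 without auxin replicate 1 or when level was not divided by length.

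Carriers between nucleus and cytoplasm kept more of their RNA. The karyopherins, the carriers that take proteins through the nuclear pore, were called lower at 8 of 12, and at 5 of 12 when any single library was left out. Their median was -0.61 (65.5% kept), and all 12 lay above their level group, with a level-adjusted median of 1.42. The value was 0.67 when coding length was matched as well and 0.66 when level was not divided by length. The median coding length of these genes was 3123 bases. The list was gathered from descriptions after the annotation terms had been ranked. KAP123, the main importer of ribosomal proteins, had 7578 and 8609 scaled counts under DMSO and 7122 and 8699 under auxin. KAP122, the importer of TFIIA, had 952 and 967 under DMSO and 827 and 1008 under auxin. YGL241W, an importer whose deposited description lists Sua7 among its cargoes, was the lowest at 33.0% (log2 change -1.60, SE 0.26, edgeR adjusted p = 7.51e-10). The larger group annotated to the nuclear pore, which shares some genes with it, had 39 of 43 lower and a median of -2.08.

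**Figure D3:**
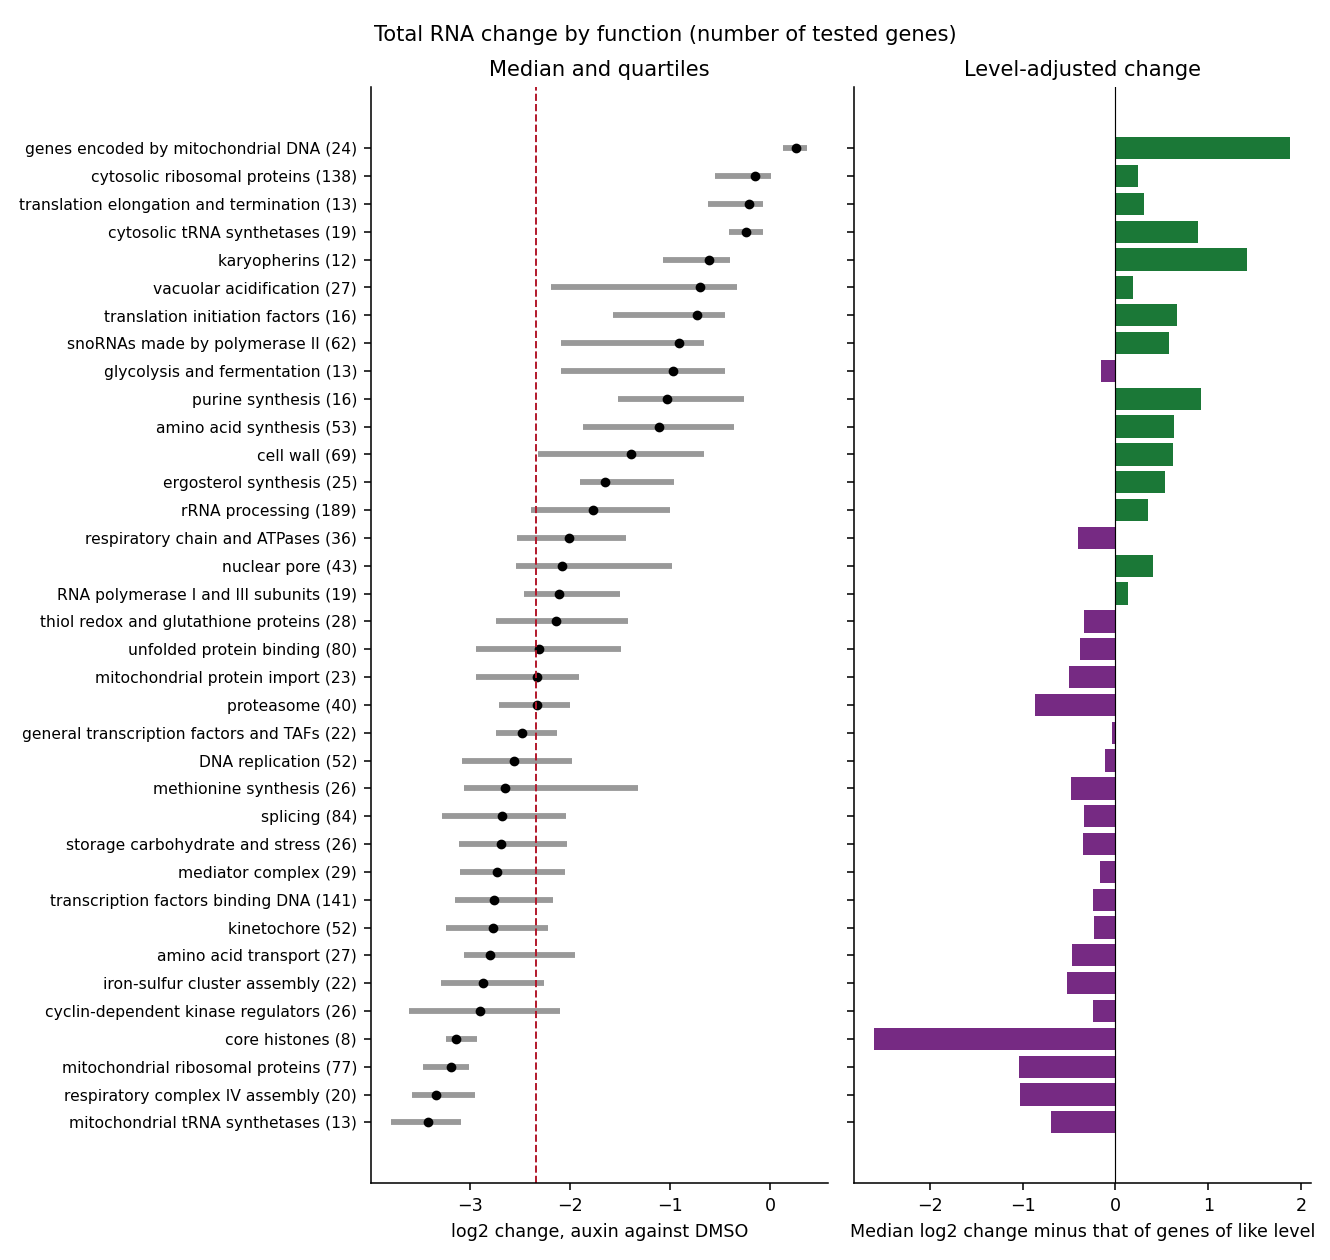
Functions are ordered by the median log2 change, on the deposited scaling, of their tested genes (left panel, dots, with bars from the lower to the upper quartile and a dashed line at the median of all tested genes, -2.34), and the right panel gives the median level-adjusted change on the log2 scale. Cytosolic translation lies at the top near 0 and mitochondrial translation at the bottom near -3, and the core histones (-2.60) and karyopherins (1.42) show the widest departures in each direction among nuclear genes after level is allowed for.

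Enzymes of amino acid, purine and ergosterol synthesis kept more than genes of like level. Amino acid synthesis genes were lower at 38 of 53 and higher at 1, with a median of -1.11 (46.2% kept) and a level-adjusted median of 0.63. The higher gene, YGL009C, an isopropylmalate isomerase of leucine synthesis, had 5915 and 7505 scaled counts under DMSO and 8502 and 10782 under auxin (0.52, SE 0.24, edgeR adjusted p = 0.0318), a call lost in each fit that left out 1 library (log2 change from 0.34 to 0.70, adjusted p between 0.0898 and 0.405). The transcription factor of the same pathway, YLR451W, which the annotation places in the list, went from 167 and 191 to 19.96 and 20.1. Purine synthesis genes were lower at 10 of 16 (median -1.03, level-adjusted 0.92). YMR217W, the GMP synthase, had 1386 and 1626 scaled counts under DMSO and 1418 and 1729 under auxin, and YMR300C, which catalyses the first step of the pathway, fell to 16.9%. Ergosterol synthesis fell at 23 of 25 with a median of -1.65 and a level-adjusted median of 0.54, or 0.33 with 10 level groups. Among members with a mean DMSO count of at least 100, ERG2 (74.1% kept) and ERG5 (14.3% kept), both enzymes of the late pathway, marked the ends, and the lowest of all 25 had a log2 change of -3.84.

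Methionine synthesis and amino acid uptake went the other way. The methionine list is not separate from the amino acid synthesis list, and their gene of highest mean DMSO count is the same. Methionine genes were lower at 22 of 26 with a median of -2.64 and lay 0.48 below their level groups, or 0.31 without auxin replicate 1. Amino acid transport fell at 27 of 27, against 90.3% of all tested genes, with a median of -2.80, which was 0.47 below. YPL274W, the high-affinity permease for S-adenosylmethionine, had 2216 and 2525 scaled counts under DMSO and 145 and 194 under auxin, and SHR3, the chaperone that packages permeases for export, kept 50.02%, although without auxin replicate 1 this call did not hold (adjusted p = 0.0539).

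Glycolysis and fermentation lay near its level groups. Of 13 genes 10 were lower, with a median of -0.97, and the level-adjusted median of -0.16 turned to 0.14 with 10 level groups. The median member lay in the top level group, which also holds many cytosolic ribosomal protein genes. Within the pathway CDC19, the main pyruvate kinase, kept 89.1%, with 17658 and 18296 scaled counts under DMSO and 15757 and 16274 under auxin. HXK1, the hexokinase of glucose-poor growth, kept 9.24%, with 1713 and 2149 under DMSO and 147 and 211 under auxin. Vacuolar acidification, the work of the proton pump of the vacuole, was lower at 16 of 27 with a median of -0.70. The pump subunit YOR332W had 2283 and 2528 scaled counts under DMSO and 2128 and 2389 under auxin.

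The proteasome, the protease that degrades ubiquitin-tagged proteins, was lower throughout. All 40 genes with a proteasome subunit or assembly factor in their description were lower, against 90.3% of all tested genes. Their median was -2.33 (19.9% kept). At a median DMSO level of 2535 scaled counts per kb, this lay 0.87 below their level groups, and only 5 of 40 lay above. RPN1, a base subunit of the regulatory particle, kept the most at 64.1%, with 3861 and 4301 scaled counts under DMSO and 2457 and 2777 under auxin. Its call was lost whichever library was left out (log2 change from -0.73 to -0.56, adjusted p between 0.0806 and 0.204). YBR272C, an assembly chaperone of the same particle, kept the least at 9.87%.

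Chaperones and protective enzymes varied widely. Genes annotated to binding of unfolded proteins fell at 74 of 80 with a level-adjusted median of -0.39, and 13 of the 80 kept over 50%. SSA4, a heat-inducible Hsp70 (chromosome V, 364589 to 366517), had 25017 and 33273 scaled counts under DMSO and 2455 and 2987 under auxin, a change of -3.42 (SE 0.25, edgeR adjusted p = 3.46e-39). SSZ1, an Hsp70 that works on the ribosome, had 10852 and 13267 under DMSO and 11248 and 13927 under auxin. Storage carbohydrate and general stress genes were lower at 26 of 26, against 90.3% of all tested genes, with a median of -2.69 (15.5% kept). Proteins with thioredoxin, glutaredoxin or glutathione in their description fell at 27 of 28. TRX1, a cytosolic thioredoxin, kept 72.7%, while YLL060C, a glutathione S-transferase, went from 3374 and 3757 scaled counts to 156 and 198.

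The genes furthest below their level group, among named nuclear coding genes with a mean DMSO count of at least 100 and the same sign in all 4 pairs of libraries, were the following 8. GPX2, a glutathione peroxidase, had 4634 and 5623 scaled counts under DMSO and 266 and 406 under auxin (level-adjusted change -3.61). MBF1, a coactivator that links activators to the TATA-binding protein, went from 11312 and 13882 to 833 and 1086 (-3.39). OYE3, an NADPH oxidoreductase, went from 5307 and 6124 to 250 and 286 (-3.28). The others were SSA4 (-3.10), GRX2 (-3.02), TMA10 (-2.94), HTA1 (-2.94) and STF2 (-2.92). GRX2 is a glutaredoxin, TMA10 a ribosome-associated protein and STF2 a protein of resistance to drying. All 8 were lower, with edgeR adjusted p-values of at most 3.76e-30, and kept between 4.69 and 10.4%.

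The 8 genes furthest above had unlike roles, and 0 of them passed edgeR's test, at an adjusted or an unadjusted p under 0.05, while DESeq2 called 2 higher, SER3 and SRO77 (adjusted p = 0.0289 and 0.0498). SER3, a phosphoglycerate dehydrogenase of serine synthesis (chromosome V, 322686 to 324095), had 416 and 488 scaled counts under DMSO and 567 and 655 under auxin, a log2 change of 0.43 and a level-adjusted change of 3.07. SRO77, a protein of exocytosis, had 231 and 246 under DMSO and 299 and 348 under auxin (2.93). For both genes the groups do not overlap, with the auxin libraries higher. KAP122 (2.57), URB1 (2.45), SWI1 (2.33), PYC2 (2.31), MRN1 (2.28) and STD1 (2.26) followed. SWI1 encodes a subunit of the SWI/SNF remodeler, PYC2 a pyruvate carboxylase, MRN1 an RNA-binding protein and STD1 a regulator of glucose signalling. SWI1 had 163 and 191 scaled counts under DMSO and 147 and 190 under auxin. Coding lengths were 1410 bases for SER3, 3033 for SRO77, 3246 for KAP122, 5295 for URB1 and 3945 for SWI1. They were 3543 for PYC2, 1839 for MRN1 and 1335 for STD1. The part of length was not tested here either.

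Cell cycle genes were lower at nearly every gene. Over all tested genes 90.3% were lower, and between 96.7 and 98.5% in the fourth to the fourteenth level group. Regulators of cyclin-dependent kinases were lower at 25 of 26, with a median of -2.90 (13.4% kept), against -2.34 for all tested genes. Their level-adjusted median ranged from -0.37 to -0.21 when single libraries were left out. CLB6, a cyclin of S phase, went from 133 and 134 scaled counts to 6.94 and 7.66. YHR071W, a cyclin of the Pho85 kinase, kept the most among members with a mean DMSO count of at least 100, at 68.2%, and its call was lost whichever library was left out (log2 change from -0.67 to -0.42, adjusted p between 0.0715 and 0.287). Kinetochore genes were lower at 51 of 52 (median -2.76) and DNA replication genes at 50 of 52 (median -2.56). With single libraries left out, their level-adjusted medians ranged from -0.29 to -0.10 and from -0.19 to 0.017.

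Pairs of paralogs often parted. The deposited descriptions name 324 pairs in which both genes were tested and had a mean DMSO count of at least 100. The 2 log2 changes differed by a median of 0.60, by over 1 in 93 pairs and by over 2 in 24. In 57 pairs of cytosolic ribosomal proteins the median difference was 0.30, and in the other 267 it was 0.70. The more abundant paralog kept more in 200 of the 324 pairs. Near-identical copies can share reads, so the split within such pairs is uncertain. The pairs were ranked by this difference after the values had been seen, so what follows is a description with no test of the differences.

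In the widest pairs a kept and a lost copy carried the same function. SER33 had 1612 and 1969 scaled counts under DMSO and 198 and 212 under auxin, while its paralog SER3 led the 8 genes furthest above their level group, a difference of 3.56 on the log2 scale. RPS9B, a protein of the small ribosomal subunit, had 25680 and 30703 under DMSO and 26580 and 30855 under auxin, and RPS9A 2250 and 2819 under DMSO and 228 and 329 under auxin. RPL22A kept 83.8% and RPL22B 11.1%. RPL15A kept 73.4% against 10.9% for RPL15B, and the call of RPL15A was lost whichever library was left out (log2 change from -0.59 to -0.29, adjusted p between 0.0870 and 0.397).

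Among other wide pairs, HXK2, GRS1 and SOL3 were the more abundant copy and kept more, while YMC1 and YJR061W were the less abundant copy and kept more. HXK2, the hexokinase of growth on glucose, kept 51.1% against 9.24% for HXK1. The glycyl-tRNA synthetase GRS1 had 12626 and 15801 scaled counts under DMSO and 12117 and 15539 under auxin, and its paralog GRS2, described as silent in normal growth, 327 and 367 under DMSO and 51.2 and 63.2 under auxin. SOL3 and SOL4, both 6-phosphogluconolactonases, kept 56.3 and 9.69%, and the call of SOL3 was lost without DMSO replicate 2 (adjusted p = 0.0551) or auxin replicate 1 (0.0729). The inner membrane carriers YMC1 and YMC2 had like DMSO levels, 297 and 386 against 424 and 500 scaled counts, and kept 72.3 and 13.4%. The widest pair of all was YJR061W with MNN4, a regulator of mannose phosphorylation in the cell wall, at -0.03 and -3.63.

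**Figure D4:**
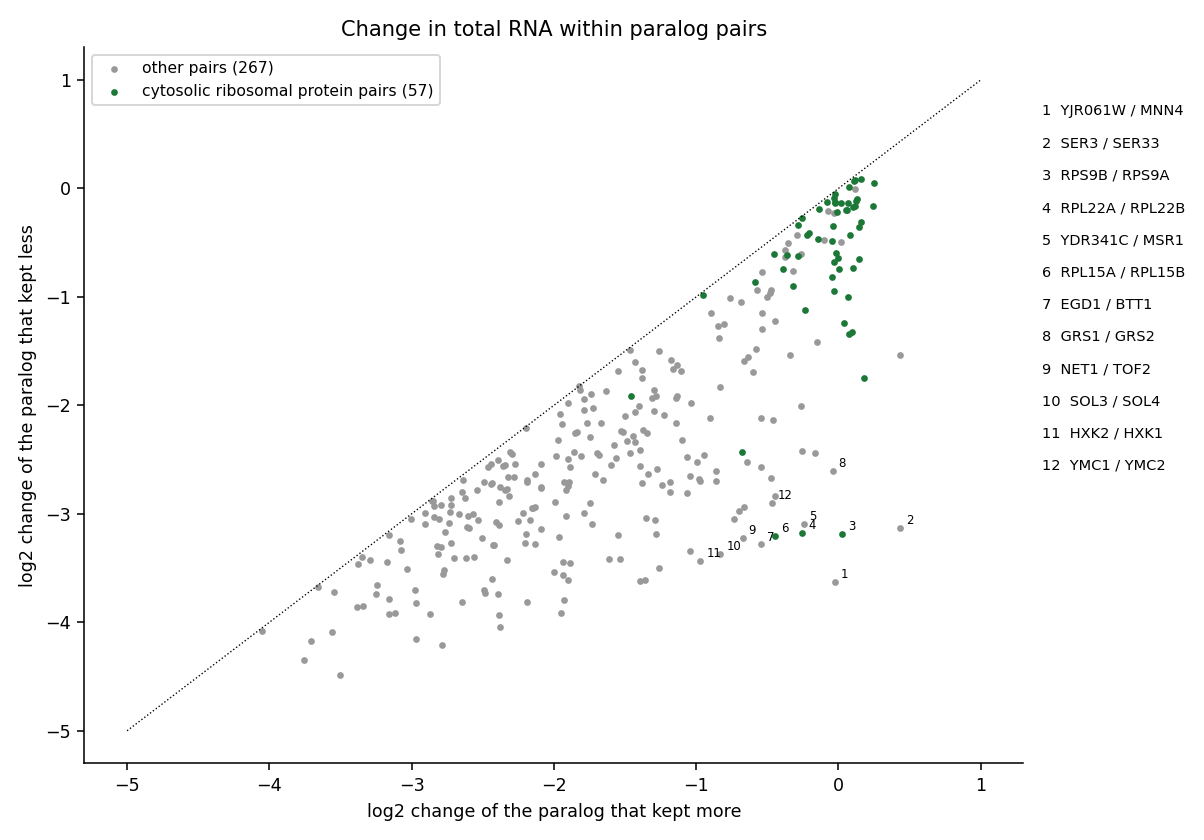
Each point is 1 of the 324 paralog pairs, placed by the log2 change of the member that kept more (horizontal) and of the member that kept less (vertical), with equal changes on the dotted line. The 12 widest pairs are numbered, and most of the 57 cytosolic ribosomal protein pairs sit at the upper right near the line.

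Long genes kept more RNA than others of like level. The 5265 tested nuclear coding genes outside dubious reading frames were split into 10 groups by coding length. The longest group, of 527 genes from 2841 to 14733 bases, had a median of -1.78 and a level-adjusted median of 0.67, and 78.7% of its genes lay above their level group. In the other groups the level-adjusted median lay between -0.27 and 0.13. Level was measured per kb here, so a long gene has more counts than a short gene of the same level.

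The ratio of newly synthesized to total RNA in DMSO, taken here as a rough measure of turnover, is given beside the change for the same functions. It shares the DMSO total libraries with the change, so no correlation is given. On the log2 scale relative to the median gene it was -3.26 for cytosolic ribosomal proteins, -2.26 for elongation and termination and -1.38 for cytosolic tRNA synthetases. It was -0.49 for mitochondrial ribosomal proteins and 0.26 for mitochondrial tRNA synthetases, and it was 0.79 for transcription factors and 0.60 for regulators of cyclin-dependent kinases. The order was not the same throughout. Karyopherins (-0.02) and rRNA processing genes (-0.14) were near the median gene by the ratio and kept more than the median gene, while core histones (-0.78) and complex IV assembly genes (-0.88) had low ratios and were among the most depleted. The ratio also differed with coding length. Its median was -1.05 in the shortest of the 10 length groups and 0.52 in the longest. The part of length in these exceptions was not tested.

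The make-up of the counts differed between the groups. Cytosolic ribosomal proteins went from 18.0 and 17.8% of counts in the DMSO libraries to 26.1 and 26.3% in the auxin libraries. Cytosolic tRNA synthetases went from 1.64 and 1.67% to 2.29 and 2.52%. Mitochondrial ribosomal proteins went from 0.386 and 0.396% to 0.0636 and 0.0748%, core histones from 0.278 and 0.284% to 0.0453 and 0.0535%, and the proteasome from 0.908 and 0.927% to 0.349 and 0.392%. Shares need no scaling factor. Their Wilson 95% intervals, which cover counting error only, were at most 0.0325 percentage points to each side.

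**Figure D5:**
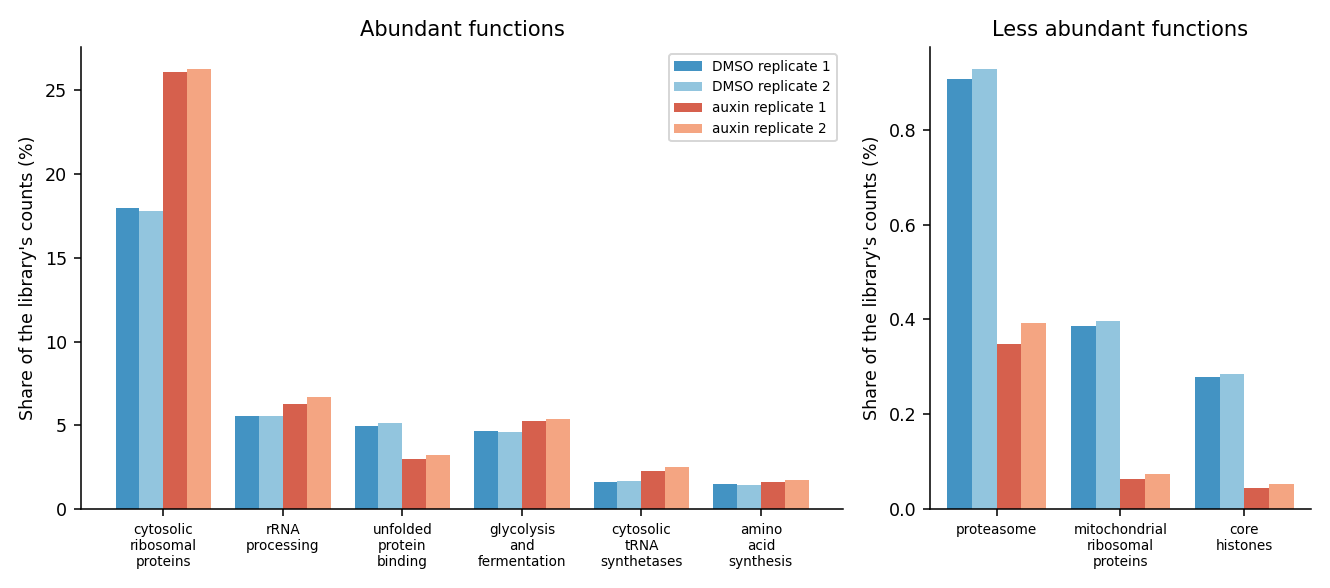
Bars give the share of each library's counts (%) taken by the genes of a function, with the 2 DMSO libraries in blue and the 2 auxin libraries in red, and separate axes for abundant and less abundant functions. The rRNA processing genes include some for cytosolic ribosomal proteins. Both auxin bars stand above both DMSO bars for cytosolic ribosomal proteins (26.1 and 26.3 against 18.0 and 17.8%) and below them for mitochondrial ribosomal proteins, core histones and the proteasome.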

How the data were processed

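Total RNA from 4 libraries was analysed. The deposited values are raw counts per gene and a normalized signal, per the file headers, and the signal per gene was the count divided by 1 factor per library (0.881 and 0.951 for DMSO, 1.15 and 1.04 for auxin). The deposited signal per kb was used for levels. The sources used here do not say how the factors were set, nor do they name the aligner or counter. The submitters' processing notes name the build sacCer3 and bcl2fastq (2.17.1.14). Whether counting used strand is not given either, so overlapping, antisense and near-identical genes are uncertain.

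Differences were tested by edgeR's quasi-likelihood method (edgeR 4.0.16, R 4.3.3). Library sizes were set in proportion to the factors, and genes were kept by filterByExpr (minimum count 10), adjusted over all 5479 genes. The SE of a log2 change is its size divided by the square root of the F statistic, not a fitted standard error. On data simulated for this comparison (5268 genes), the fit recovered 100% of changes of -2 and of 2 on the log2 scale. It recovered 68% of changes of -1 and 62% of changes of 1, so smaller changes can be missed. In the libraries themselves edgeR called SHR3 at -1.00 (adjusted p = 1.21e-04) and WRS1 at -0.62 (adjusted p = 0.0146). YMR229C at 0.43 was not called (adjusted p = 0.0699). Whether the recovered shares hold for these libraries was not tested. Replicates of a group differed by more than sampling noise (chi-square per degree of freedom 3.66 for DMSO and 12.0 for auxin).

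Functions came from 57 lists of symbols, 53 groups of deposited annotation terms and 5 groups of deposited descriptions. Of 1798 listed symbols 1029 matched, since 3432 nuclear coding genes carry no name in the files. Those genes are given by identifier. Members, lists and term groups were chosen with earlier results of these data known, the term and description groups after the files were seen. Named genes were the 8 lowest and 8 highest level-adjusted changes among named nuclear coding genes with a mean scaled DMSO count of at least 100 and the same sign in 4 library pairs, and for each function the members at either end of the log2 change at that count. YNL008C and 15 paralogs (GRS1, GRS2, HXK2, MNN4, RPL15A, RPL22A, RPL22B, RPS9A, RPS9B, SER33, SOL3, SOL4, YJR061W, YMC1 and YMC2) fall outside it and were chosen after their values were seen. Library pairs used a pseudocount of 0.5. Alternatives were DESeq2 1.42.0, other scalings and filters, a fold threshold (log2 of 1), a block on replicate number, all 8 libraries, other level groups and each library left out. Sequences and motifs after the stop codon were not analysed here.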

Additional observations from a re-analysis of the deposited data

How the results depend on the processing

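Scaling decided the absolute direction. With TMM 2081 genes were lower and 1894 higher, with a median of -0.12, and with median-of-ratios factors 1817 and 2027, with a median of -0.0196. With other settings the number of lower genes stayed within 1.5 times 4946. The number of higher genes was 119 with all 8 libraries, 20 with a minimum mean count of 50, 169 with no filter and 123 with a replicate block. The labels do not say what the replicate numbers share. Deviations of same-numbered libraries had a correlation of 0.03 across genes, but the median level was higher in replicate 2 by 0.25 in DMSO and 0.26 in auxin. Under the block no named gene lost its call and 15 of 84 gained one, RPL21B, YMR229C, EFT2, CAM1, RPA190, CDC19, ERG2, TRX1, snR30, STD1, PYC2, SRO77, SER3, RPL22A and YMC1. Leaving out single libraries gave 4587 to 4841 lower and 81 to 104 higher genes, and a median from -2.47 to -2.19. The 2 libraries in each group limit precision, and genes near the threshold lost their calls, as given beside them.

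With TMM the median log2 change turned positive for elongation and termination factors and for cytosolic ribosomal proteins (2.09), cytosolic tRNA synthetases (1.98), rRNA processing (0.46), initiation factors (1.49), respiratory chain and ATPases (0.23), polymerase I and III subunits (0.12), nuclear pore (0.15), karyopherins (1.61), glycolysis (1.27), amino acid (1.11), purine (1.19) and ergosterol synthesis (0.57), thiol redox proteins (0.086), vacuolar acidification (1.54), cell wall (0.83) and snoRNAs (1.31). It was -0.96 for mitochondrial ribosomal proteins, -1.20 for mitochondrial tRNA synthetases and -0.11 for the proteasome.

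The level-adjusted medians depended on how level was grouped. With 10 groups they were 0.53 for cytosolic ribosomal proteins, 0.58 for cytosolic tRNA synthetases, -1.08 for the proteasome and 0.14 for glycolysis, which reversed. With 40 groups that of ribosomal proteins was 0.11. With 10 level groups by 5 length groups it was 0.51 for ribosomal proteins, 0.51 for cytosolic synthetases, -0.74 for mitochondrial ribosomal proteins, -1.13 for the proteasome and 0.28 for glycolysis, reversed. With level not divided by length these were 0.34, 0.30, -0.72 and -0.77, without glycolysis, and mitochondrial synthetases were at -0.85, while respiratory chain and ATPases (0.27) and thiol redox proteins (0.0097) reversed. At a DMSO count of at least 100, rRNA processing was at 0.376. Leaving out single libraries gave 0.23 to 0.28 for ribosomal proteins, -0.87 to -0.67 for mitochondrial synthetases and 0.34 to 0.38 for rRNA processing. The level and length grouping, TMM for level-adjusted values and the minimum of 100 were chosen after seeing the data.

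The named genes whose log2 change turned from negative to positive with TMM were WRS1 1.60, ISM1 0.13, RPN1 1.58, SUP45 0.93, YLR038C 0.69, SSC1 0.83, CAM1 1.92, SRB2 0.88, TAF2 1.34, KAP123 2.19, YGL241W 0.63, CDC19 2.06, ERG2 1.80, TRX1 1.78, SHR3 1.22, YOR332W 2.14, YHR071W 1.69, snR30 2.13, STD1 1.83, PYC2 1.90, SWI1 2.14, URB1 2.21, KAP122 2.15, RPL22A 1.98, RPL15A 1.78, YJR061W 2.20, GRS1 2.18, SOL3 1.39, HXK2 1.25, YMC1 1.76. Genes that changed sign when a library was left out lay near 0 and were not called, with ranges of CDC60 -0.10 to 0.21, EFT2 -0.071 to 0.28, GRS1 -0.23 to 0.13, KAP122 -0.21 to 0.071, KAP123 -0.18 to 0.10, MRN1 -0.026 to 0.21, RPS9B -0.096 to 0.16, SSZ1 -0.10 to 0.21, SWI1 -0.28 to 0.095, TIF1 -0.21 to 0.21, URB1 -0.22 to 0.16, YJR061W -0.23 to 0.15, YMR217W -0.087 to 0.20. The cause was not tested. The planned motif count after stop codons was not run.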

Other observations

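Ranking the 534 deposited annotation terms with at least 15 tested genes by the median level-adjusted change put protein refolding lowest (-1.37, 16 genes), ahead of the mitochondrial ribosomal subunits. The U2 snRNP, which recognises the branch point in splicing, was at -0.87 (18 genes). Protein transporter activity (0.87, 27 genes) and Ran GTPase binding (0.87, 15 genes) were highest, followed by binding (0.83, 109 genes), hydrolysis of O-glycosyl bonds (0.81, 18 genes) and metallopeptidase activity (0.79, 21 genes). The ranking was made after the values were seen and is a description with no test.

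Cell wall genes were lower at 55 of 69 and higher at 3, with a median log2 change of -1.39 and a level-adjusted median of 0.62. Over all tested genes 90.3% were lower and 1.44% higher. Mean scaled DMSO counts of the members went down to 0.57. Among members with a mean of at least 100 the highest log2 change was -0.28, so the 3 higher genes were under that count.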
